A study of Mus musculus x Mus spretus with 8 samples.

Results

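The genes described here are 8 transcription factor genes of the nephric lineage, Pax2, Pax8, Lhx1, Hnf4a, Emx2, Wt1, Gata3 and Sall1. They were taken by symbol from the 49670 genes of the count table, and each matched 1 gene of GENCODE M21 on GRCm38. The RNA came from 8 libraries of the Patski cell line, labelled as fibroblasts from a female hybrid of C57BL/6 and SPRET/EiJ mice and known to have been derived from embryonic kidney. The libraries formed 4 groups of 2: Stc1-KO (Stc1 -/-), Pygo1-KO (Pygo1 -/-), Rlim-KO (Rlim -/-) and wild type (WT). All 4 groups carried the same hybrid background and grew in the same serum-containing medium, and no other allele or agent is named. The series text speaks of independent knockout mutants and does not say how the WT pair arose, so p-values measure only the spread between these libraries, which for WT may be technical. Reads over bases that differ between the parents had been assigned by the authors to genome 1 or genome 2, and which parent is genome 1 is not stated in the labels.

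In the mouse embryo the kidney arises from the nephric duct, whose outgrowth, the ureteric bud, meets the metanephric mesenchyme. Pax2 and Pax8, related paired-box factors with partly shared roles, and the LIM homeodomain factor Lhx1 specify the duct, and Gata3 acts downstream of them in its guidance and in the upkeep of the receptor gene Ret. Emx2 is needed in the ureteric bud, Sall1 and Wt1 act in the mesenchyme and its nephron progenitors, Wt1 is later kept in podocytes, and Hnf4a drives maturation of the proximal tubule.

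The libraries held 73128996 to 81500061 counts, of which 50.64 to 52.64% carried a genome. Stc1 had 3.67 and 68.38 CPM in Stc1-KO and 3.84 and 3.15 CPM in WT libraries, Pygo1 had 2.50 and 0.674 CPM in Pygo1-KO and 2.49 and 2.44 CPM in WT, and Rlim had 71.9 and 64.2 CPM in Rlim-KO and 57.2 and 51.4 CPM in WT, where CPM are read counts scaled to a common library size with TMM factors. The log2 fold changes of the named genes were 3.37, -0.63 and 0.33, and edgeR called none, with adjusted p of 0.236, 0.715 and 0.699, so the groups are called here by their labels and the genotypes were not checked by the counts. The 2 libraries labelled Stc1-KO stood furthest apart, with a median absolute log2 difference between them of 0.355 over 13064 genes, against 0.203 in Pygo1-KO, 0.065 in Rlim-KO and 0.099 in WT. The Rlim-KO pair thus lay closer together than the WT pair, and whether it holds independent mutants was not tested. Of 15 fibroblast markers, 9 averaged under 1 CPM, among them Col1a2, Col3a1, Thy1, Lum and Prrx1, although Vim, an intermediate filament gene of mesenchymal cells, averaged 975 CPM, Col5a1, a fibrillar collagen gene, 304 CPM, Pdgfra 6.53 CPM and Col1a1 4.22 CPM. Of 18 tubule and collecting duct markers, 8 averaged under 1 CPM, among them Slc34a1, Umod, Aqp2, Krt18 and Krt19, and Epcam averaged 1.34 CPM and Krt8 1.02 CPM. Cdh16, the kidney-specific cadherin, averaged 1769 CPM, the water channel gene Aqp1 averaged 2743 CPM and the endocytic receptor gene Lrp2 averaged 587 CPM.

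**Figure D1:**
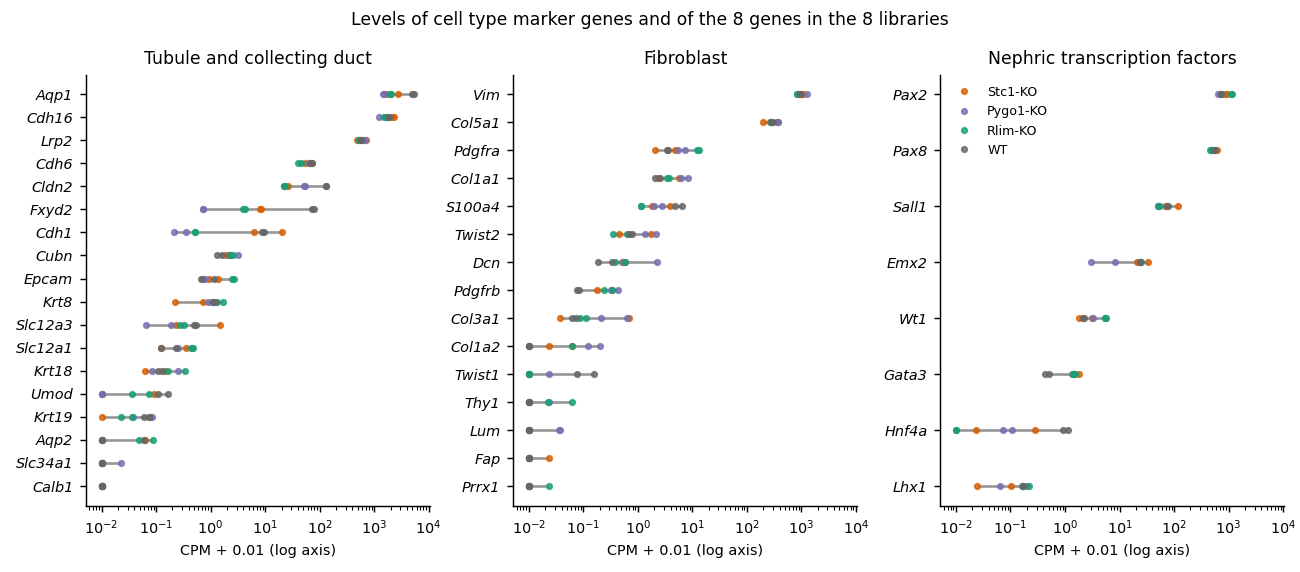
CPM (log axis, 0.01 added) of each tubule and collecting duct marker, fibroblast marker and nephric transcription factor gene, with 1 point per library coloured by label and a line over the range. The means of Pax2 and Pax8, 861 and 515 CPM, lie between those of the fibroblast markers Col5a1 and Vim. Of the abundant tubule markers, Lrp2 averages between them and Cdh16 and Aqp1 above both. Markers of both cell types, such as Lum, Fap and Prrx1 of fibroblasts and Slc34a1, Umod and Aqp2 of tubules, lie at or near 0.

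Pax2 and Pax8 were among the most abundant mRNAs of these cells, and the other 6 genes ranged from moderate to barely detected. On the scale of CPM per kb of merged exons, which allows levels of different genes to be compared, Pax2 averaged 159 over the 8 libraries and ranked 236 of 17787 genes, within the top 1.33%. Pax8 averaged 85.0 CPM per kb and ranked 571. Sall1 averaged 13.0 CPM per kb, Emx2 6.70, Wt1 0.580, Gata3 0.310, Hnf4a 0.0646 and Lhx1 0.0317, a span that placed Lhx1 at rank 17352. The order Pax2, Pax8, Sall1, Emx2 held in all 8 libraries with no overlap within any group. Below these the order varied: Wt1 stood above Gata3 in 7 libraries, with ranges that overlapped within Stc1-KO. In the WT libraries Hnf4a stood above Gata3, and in the 6 other libraries below it.

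Against WT, 1 of the 8 genes changed in each comparison, and it was Gata3, which was higher 3.55-fold in Stc1-KO, 2.97-fold in Pygo1-KO and 3.16-fold in Rlim-KO libraries. Of all 17839 genes tested, 0.577% were called in Stc1-KO, 2.35% in Pygo1-KO and 1.4% in Rlim-KO, and 0.286%, 1.54% and 0.785% were called higher in the same order of labels. At an unadjusted p under 0.05, 2, 5 and 4 of the 8 passed, beside 16, 20.6 and 17.9% of all genes, and DESeq2 called 1, 3 and 4 of the 8, beside 4.79, 8.98 and 6.94% of all genes. All 8 genes passed the filter on low counts. The median log2 fold change of the 8 was 0.173 in Stc1-KO, -0.249 in Pygo1-KO and 0.109 in Rlim-KO, beside 0.014, -0.001 and 0.006 over all genes tested. The 3 comparisons share the 2 WT libraries, so their results are not independent of each other. In RNA from a whole culture, fewer cells that express a gene and less RNA per cell cannot be told apart.

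**Figure D2:**
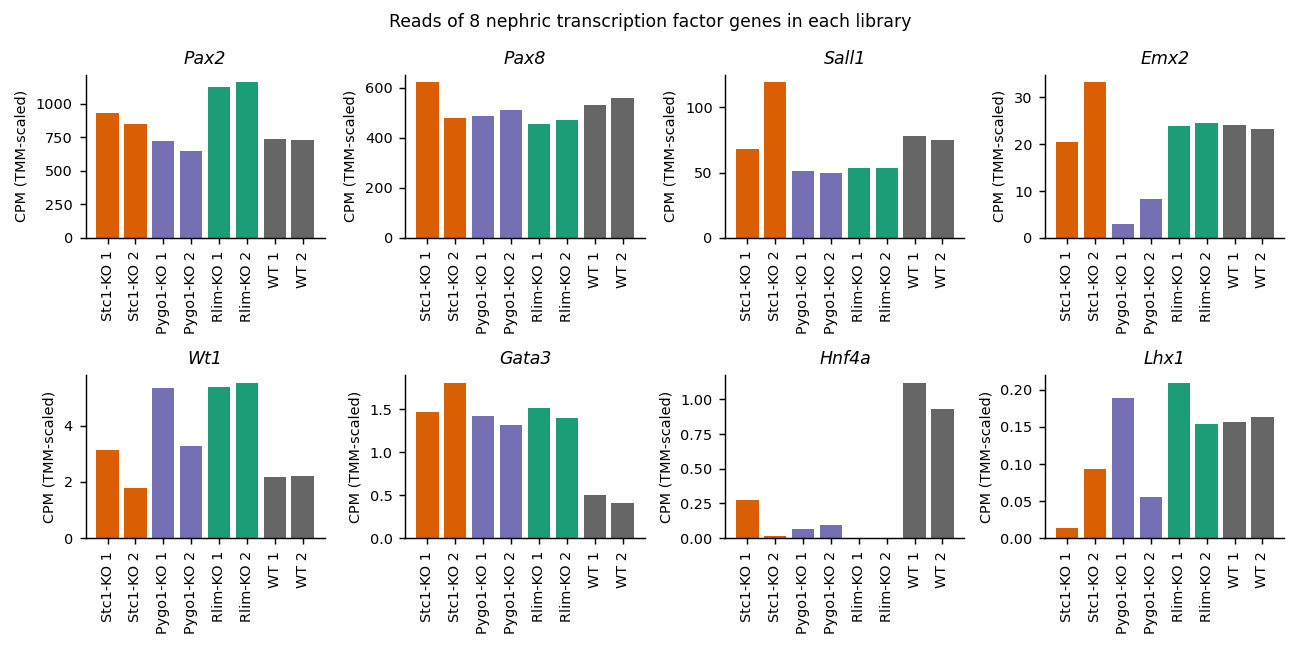
CPM of each of the 8 genes in each library, in the order Stc1-KO, Pygo1-KO, Rlim-KO and WT, with 1 bar per library and an axis of its own for each gene. Gata3 stands at 1.32 to 1.81 CPM in the 6 libraries labelled as knockout and at 0.413 and 0.508 CPM in WT, and Hnf4a stands at 0 in both Rlim-KO libraries.

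Pax2, which acts at the top of the duct programme, lies at chr19:44756045-44837871 on the plus strand. It had 927 and 844 CPM in Stc1-KO, 725 and 649 CPM in Pygo1-KO, and 1124 and 1158 CPM in Rlim-KO libraries, against 733 and 731 CPM in WT. The Rlim-KO pair was the highest of the 4 and overlapped no other group, and the Pygo1-KO pair was the lowest. The log2 fold change against WT was 0.64 ± 0.12 (SE) in Rlim-KO, with an edgeR adjusted p of 0.0613, which does not pass the threshold of 0.05. Without either Stc1-KO library the same comparison passed, with edgeR adjusted p of 0.00555 without replicate 1 and 0.00544 without replicate 2. In Stc1-KO the log2 fold change was 0.28 ± 0.12 and in Pygo1-KO -0.09 ± 0.12, with edgeR adjusted p of 0.326 and 0.71.

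Pax2 was read from both genomes in 3 of the groups and almost only from genome 1 in Pygo1-KO. Of the Pax2 reads that carried a genome, genome 1 held 80.6 and 82.6% in Stc1-KO, 99.8 and 99.8% in Pygo1-KO, and 80.8 and 81.1% in Rlim-KO libraries, against 81.0 and 81.1% in WT. In Pygo1-KO only 74 of 35946 and 45 of 29341 reads came from genome 2, shares of 0.206% (95% Wilson interval 0.164 to 0.258) and 0.153% (0.115 to 0.205). Intervals and limits of this kind cover counting error only. The log2 odds of genome 1 were higher in Pygo1-KO than in WT by 7.03 ± 0.20, with an edgeR adjusted p of 3.02e-05. The call passed in all 11 alternatives, with log2 odds from 6.82 to 7.25.

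Pax2 reads of genome 2 averaged 0.775 ± 0.221 CPM in Pygo1-KO and 84.1 ± 0.599 CPM in WT (SD, n = 2 each), while reads of genome 1 averaged 427 ± 34.1 CPM in Pygo1-KO and 359 ± 0.0773 CPM in WT. The genes on both sides moved too. Over the 10 nearest genes that use both genomes in WT, all within 0.721 Mb, the median genome 1 share was 94.1 and 95% in Pygo1-KO and 65.9 and 67.3% in WT libraries. Their median log2 ratio of Pygo1-KO over WT was -2.59 for genome 2 reads, 0.30 for genome 1 reads and -0.20 for all reads. In Rlim-KO, where the level of Pax2 was highest, both genomes stood higher than in WT, at 567 ± 10.4 against 359 ± 0.0773 CPM for genome 1 and 134 ± 0.457 against 84.1 ± 0.599 CPM for genome 2. The share of genome 1 in Rlim-KO differed from that in WT by -0.01 ± 0.18 on the log2 odds scale, with an edgeR adjusted p of 1.

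Pax8, the close relative of Pax2, lies at chr2:24420560-24475599 on the minus strand. It had 623 and 479 CPM in Stc1-KO, 489 and 510 CPM in Pygo1-KO, and 455 and 473 CPM in Rlim-KO libraries, against 532 and 561 CPM in WT. The Stc1-KO libraries spanned the WT pair, and the Pygo1-KO and Rlim-KO pairs lay below it. The log2 fold changes against WT were 0.01 ± 0.15 in Stc1-KO, -0.13 ± 0.15 in Pygo1-KO and -0.24 ± 0.15 in Rlim-KO, with edgeR adjusted p of 0.978, 0.664 and 0.455. Its antisense neighbour Gm13415 shares 367 exonic bases with it and had 12 to 23 reads in a library, and the sources used here do not say whether counting used strand.

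Pax8 was read mostly from genome 2, the opposite of Pax2. Genome 1 held 16.2 and 16.4% of its reads in Stc1-KO, 16.0 and 15.8% in Pygo1-KO, and 33.0 and 34.1% in Rlim-KO libraries, against 19.3 and 19.1% in WT. Both Rlim-KO libraries stood above all others, with 95% Wilson intervals of 32.3 to 33.6% and 33.5 to 34.7%. The log2 odds of genome 1 were 1.09 ± 0.11 higher in Rlim-KO than in WT, with an edgeR adjusted p of 0.00732. That call was lost when a WT library was left out, with edgeR adjusted p of 0.098 without replicate 1 and 0.102 without replicate 2. It was also lost without either Rlim-KO library, at 0.0845 and 0.0929 by edgeR.

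By genome, Pax8 stood higher for genome 1 and lower for genome 2 in Rlim-KO than in WT. Genome 1 reads averaged 103 ± 4.85 CPM in Rlim-KO and 67.3 ± 2.0 CPM in WT, and genome 2 reads averaged 204 ± 2.36 CPM in Rlim-KO and 283 ± 11.1 CPM in WT (SD, n = 2 each). The 10 flanking genes had a median genome 1 share of 48.0 and 46.2% in Rlim-KO and 28.4 and 29.5% in WT libraries. They reach as far as 19.5 Mb from Pax8, since few genes nearer to it use both genomes in WT. Their median log2 ratio of Rlim-KO over WT was 0.92 for genome 1 reads and -0.11 for genome 2 reads.

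**Figure D3:**
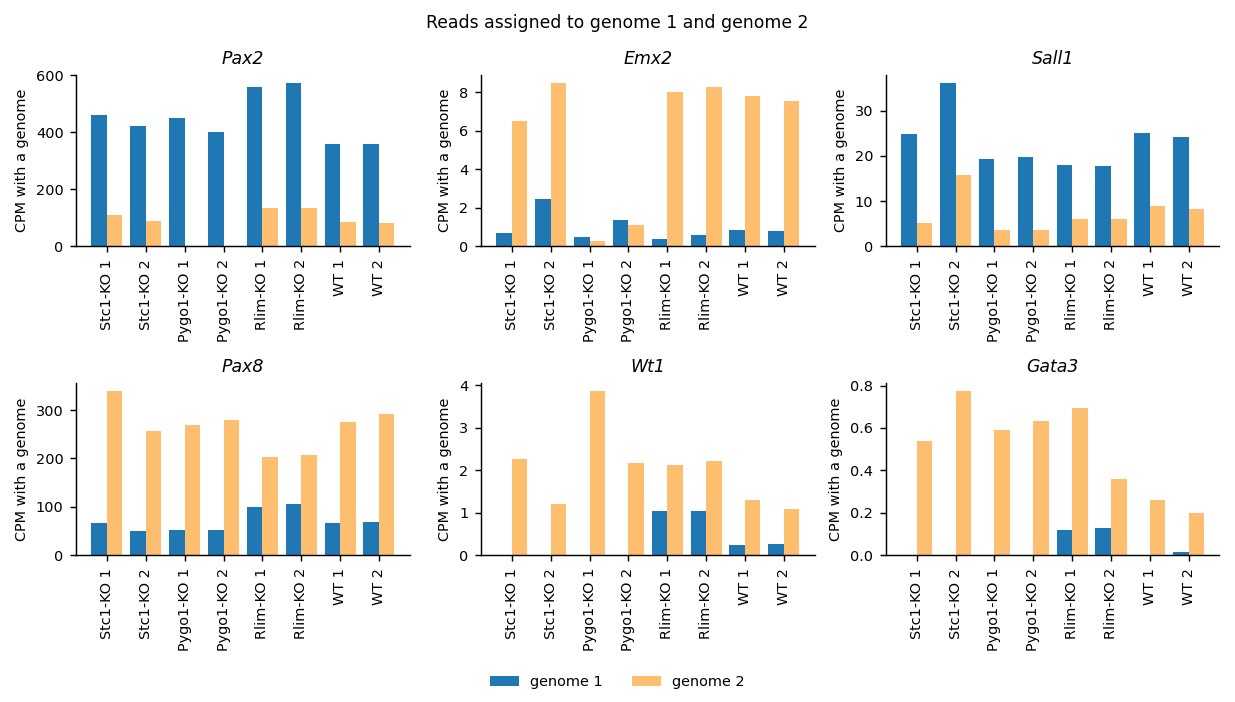
CPM of reads assigned to genome 1 and to genome 2 for 6 of the genes, with 2 bars per library and the libraries in the order Stc1-KO, Pygo1-KO, Rlim-KO and WT. Pax2 has almost no genome 2 reads in Pygo1-KO, and Wt1 has 1 genome 1 read at most in a Stc1-KO or Pygo1-KO library.

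Lhx1, which specifies the duct together with the Pax genes, was close to the limit of detection. It lies at chr11:84518284-84525535 on the minus strand and had 1 and 7 reads in Stc1-KO, 15 and 4 in Pygo1-KO, and 16 and 12 in Rlim-KO libraries, against 12 and 13 in WT. The Stc1-KO libraries lay below the WT pair and the other groups overlapped it. The log2 fold changes were -1.54 ± 0.86 in Stc1-KO, -0.37 ± 0.78 in Pygo1-KO and 0.19 ± 0.75 in Rlim-KO, with edgeR adjusted p of 0.429, 0.825 and 0.928. No Lhx1 read of any library was assigned to genome 1, out of 1 read in Stc1-KO, 10 in Pygo1-KO, 19 in Rlim-KO and 11 in WT that carried a genome, which allows a share of up to 15.8% in Rlim-KO and 27.3% in WT. Aatf, whose annotated span lies within 5 kb of Lhx1 on the same strand, had 1482 to 2295 reads in a library.

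Gata3, a zinc finger factor of the duct that Pax2 and Pax8 are known to activate, lies at chr2:9857078-9890034 on the minus strand. It had 1.47 and 1.81 CPM in Stc1-KO, 1.42 and 1.32 CPM in Pygo1-KO, and 1.52 and 1.40 CPM in Rlim-KO libraries, against 0.508 and 0.413 CPM in WT. These are low levels, from 96 to 136 reads in a knockout-labelled library and 39 and 33 reads in WT. All 6 knockout-labelled libraries lay above both WT libraries, and the 3 knockout labels lay within 1.32 to 1.81 CPM. Exact Poisson intervals at 95% reached from 0.285 to 0.694 CPM over the WT pair and from 1.07 to 2.14 CPM over the other 6 libraries.

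Gata3 rose by 1.83 ± 0.26 on the log2 scale in Stc1-KO, with an edgeR adjusted p of 0.0425. In Pygo1-KO it rose by 1.57 ± 0.26, with an edgeR adjusted p of 0.0383, and in Rlim-KO by 1.66 ± 0.26, with an edgeR adjusted p of 0.0386. All 3 values lie close to the threshold of 0.05, and the call rests on few libraries. Without WT replicate 1 the edgeR adjusted p was 0.394 in Stc1-KO, 0.31 in Pygo1-KO and 0.339 in Rlim-KO, and without WT replicate 2 it was 0.521, 0.359 and 0.414. Without either Pygo1-KO library it was 0.0604 and 0.0611 in Stc1-KO, 0.0867 and 0.0859 in Pygo1-KO, and 0.0532 and 0.0525 in Rlim-KO. Without either Rlim-KO library it was 0.191 and 0.191 in Stc1-KO, 0.134 and 0.135 in Pygo1-KO, and 0.398 and 0.37 in Rlim-KO. With only the compared groups in the fit it was 0.313 in Stc1-KO. The log2 fold change itself stayed between 1.43 and 1.99 over all 15 alternatives of each comparison.

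Between knockout labels the log2 difference of Gata3 was 0.26 ± 0.25 for Stc1-KO over Pygo1-KO, 0.17 ± 0.25 for Stc1-KO over Rlim-KO and -0.09 ± 0.25 for Pygo1-KO over Rlim-KO, with edgeR adjusted p of 0.646, 0.786 and 0.899. Of the Gata3 reads that carried a genome, genome 1 held 0 of 97 in Stc1-KO, 0 of 93 in Pygo1-KO and 19 of 100 in Rlim-KO, against 1 of 37 in WT. A count of 0 allows a share of up to 3.09% in Stc1-KO and 3.23% in Pygo1-KO, and the 95% Wilson intervals were 12.5 to 27.8% in Rlim-KO and 0.479 to 13.8% in WT. Gata3 had too few such reads for the test of shares, which asked for 20 in every library. With 10 reads as the minimum the edgeR adjusted p was 0.679 in Stc1-KO, 0.409 in Pygo1-KO and 0.316 in Rlim-KO. The genes that overlap Gata3, Gm13256, 4930412O13Rik and 9230102O04Rik, had no read in any library.

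**Figure D4:**
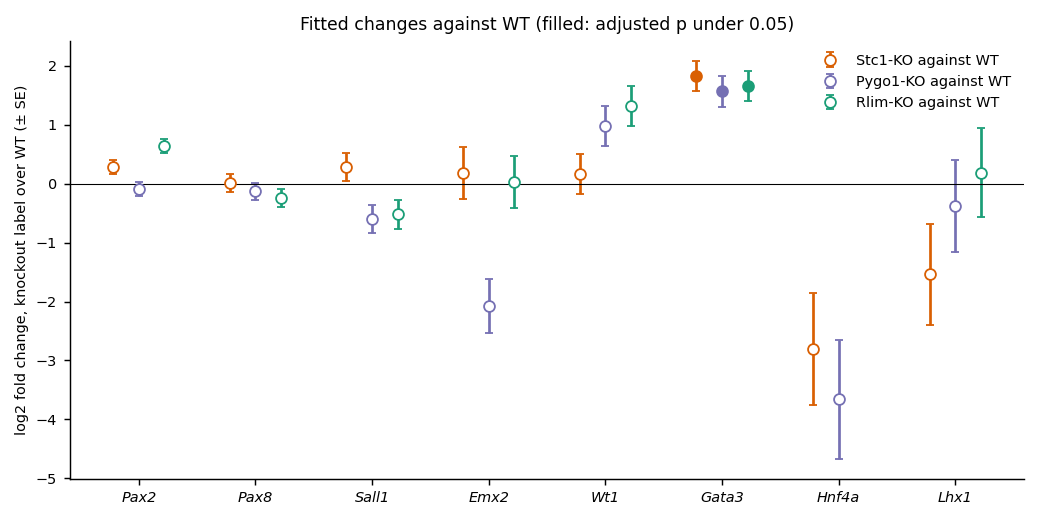
Log2 fold change of each gene with its standard error, for Stc1-KO, Pygo1-KO and Rlim-KO over WT, with filled points where the edgeR adjusted p is under 0.05. Gata3 has the filled points, at 1.83, 1.57 and 1.66, and no point is drawn for Hnf4a in Rlim-KO, which had no read there.

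Emx2, a homeobox gene of the ureteric bud, lies at chr19:59458372-59465357 on the plus strand. It had 20.5 and 33.2 CPM in Stc1-KO, 2.995 and 8.297 CPM in Pygo1-KO, and 23.8 and 24.6 CPM in Rlim-KO libraries, against 24.1 and 23.3 CPM in WT. Both Pygo1-KO libraries lay below every other library and differed from each other, in proportion, by more than the Emx2 values of any other pair. The log2 fold change against WT was -2.07 ± 0.46 in Pygo1-KO, with an edgeR adjusted p of 0.0702, which does not pass the threshold. It passed without either Stc1-KO library, at edgeR adjusted p of 0.0147 without replicate 1 and 0.0149 without replicate 2, and without Pygo1-KO replicate 2, at 0.0288. In Stc1-KO the log2 fold change was 0.18 ± 0.44 and in Rlim-KO 0.03 ± 0.44, with edgeR adjusted p of 0.876 and 0.981.

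Emx2 was read mostly from genome 2, and in Pygo1-KO that genome's reads were the ones that were low. Genome 2 reads averaged 0.695 ± 0.574 CPM in Pygo1-KO and 7.68 ± 0.165 CPM in WT, while genome 1 reads averaged 0.907 ± 0.624 CPM in Pygo1-KO and 0.824 ± 0.0135 CPM in WT (SD, n = 2 each). The genome 1 share was 9.65 and 22.6% in Stc1-KO, 61.7 and 55.1% in Pygo1-KO, and 4.69 and 6.53% in Rlim-KO libraries, against 9.65 and 9.72% in WT. The log2 odds of genome 1 were 3.69 ± 0.53 higher in Pygo1-KO than in WT, with an edgeR adjusted p of 0.00737. That call was lost without WT replicate 1 or without WT replicate 2, with edgeR adjusted p of 0.0617 and 0.0616.

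The neighbourhood of Emx2 leaned the same way. Its 10 flanking genes, within 2.55 Mb, had a median genome 1 share of 87.4 and 86.4% in Pygo1-KO and 57.1 and 58.1% in WT libraries. Their median log2 ratio of Pygo1-KO over WT was -2.16 for genome 2 reads and -0.13 for all reads. Emx2os, the antisense gene that shares 264 exonic bases with Emx2, had 0.591 and 1.86 CPM in Pygo1-KO and 3.69 and 2.94 CPM in WT libraries. Reads of Emx2 and Emx2os cannot be told apart over the shared bases if counting did not use strand.

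**Figure D5:**
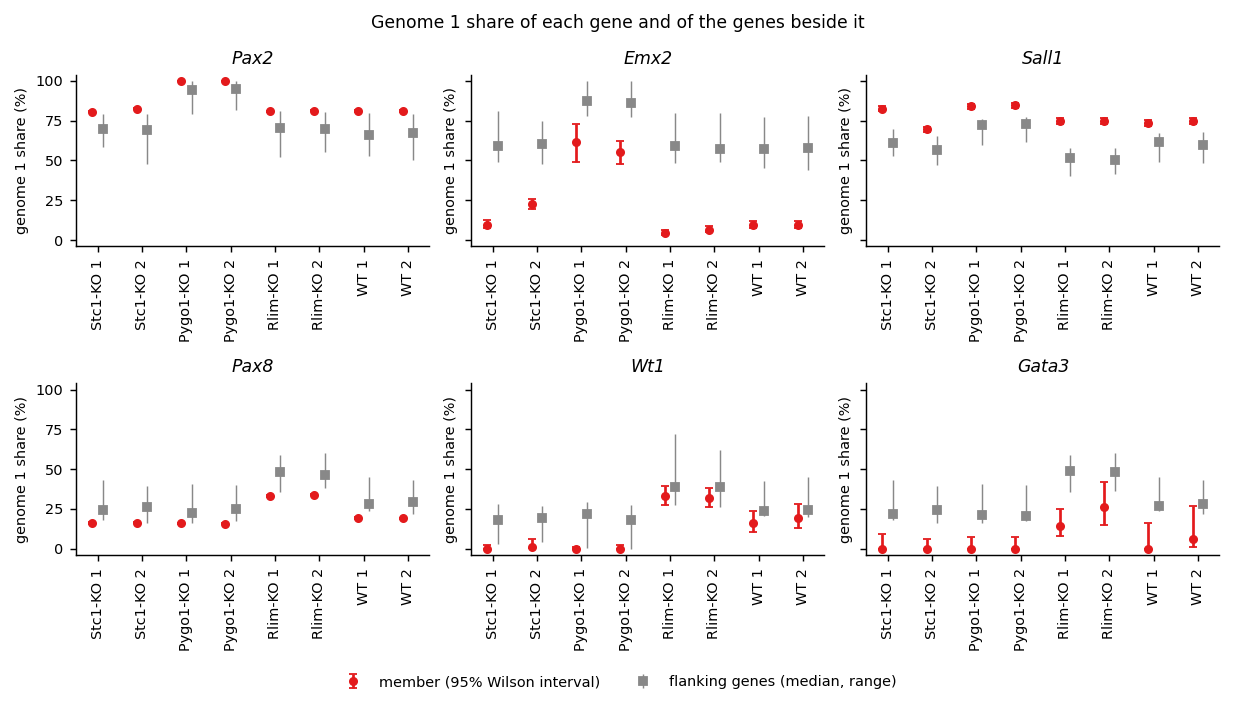
Genome 1 share in percent of 6 of the genes (red, with 95% Wilson intervals) and the median and range over their nearest flanking genes that use both genomes in WT (grey), for each library. In Pygo1-KO the medians of the flanking genes of Pax2, Emx2 and Sall1 stand above those of every other library. In Rlim-KO the medians for Pax8, Wt1 and Gata3 do, and Pax8 and Gata3 share flanking genes. The ranges overlap between groups.

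Sall1, a zinc finger repressor of the metanephric mesenchyme, lies at chr8:89027235-89044162 on the minus strand. It had 67.9 and 119 CPM in Stc1-KO, 51.4 and 49.8 CPM in Pygo1-KO, and 53.9 and 53.2 CPM in Rlim-KO libraries, against 78.4 and 74.9 CPM in WT. The Stc1-KO libraries spanned the WT pair, with replicate 2 the highest of all 8, and the Pygo1-KO and Rlim-KO pairs lay below WT. None of these differences passed, with log2 fold changes of 0.29 ± 0.24, -0.60 ± 0.24 and -0.52 ± 0.24 and edgeR adjusted p of 0.593, 0.221 and 0.315 in Stc1-KO, Pygo1-KO and Rlim-KO. Without either Stc1-KO library the edgeR adjusted p was 0.00342 and 0.00357 in Pygo1-KO, and 0.00692 and 0.00709 in Rlim-KO. Without Stc1-KO replicate 1 the remaining Stc1-KO library stood 0.63 higher than WT on the log2 scale, with an edgeR adjusted p of 0.00411, and without replicate 2 it stood at -0.18.

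Genes of chromosome 8 as a whole had a median log2 shift to WT of 0.243 in Stc1-KO replicate 2 and 0.059 in replicate 1. It was -0.081 and -0.004 in Pygo1-KO and -0.111 and -0.096 in Rlim-KO libraries. The log2 fold change of Sall1 in Stc1-KO was 0.11 after each chromosome had been scaled to its WT level, against 0.29 without that scaling, and neither passed. Other chromosomes shifted too. Chromosome 19, which holds Pax2 and Emx2, stood at -0.356 in Stc1-KO replicate 2 and 0.162 in replicate 1. Scaling moved Pax2 in Stc1-KO from 0.28 to 0.38 and Emx2 from 0.18 to 0.36, also without a call. Chromosome 2 stood at -0.193 in Stc1-KO replicate 2 and 0.006 in replicate 1. Genome 1 held 82.6 and 69.5% of the Sall1 reads in Stc1-KO, 84.0 and 84.6% in Pygo1-KO, and 74.8 and 74.9% in Rlim-KO libraries, against 73.6 and 74.8% in WT. The Pygo1-KO pair was high and Stc1-KO was split, with 1 library above WT and 1 below. The log2 odds in Pygo1-KO were 0.90 ± 0.34 higher than in WT, with an edgeR adjusted p of 0.143. That value passed without either Stc1-KO library, at 0.00738 and 0.00792 by edgeR.

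Wt1, a zinc finger factor of nephron progenitors and podocytes, lies at chr2:105126529-105173616 on the plus strand. It had 3.12 and 1.78 CPM in Stc1-KO, 5.32 and 3.28 CPM in Pygo1-KO, and 5.37 and 5.52 CPM in Rlim-KO libraries, against 2.16 and 2.21 CPM in WT. Pygo1-KO and Rlim-KO libraries lay above both WT libraries, and the Stc1-KO pair spanned them. The log2 fold changes were 0.17 ± 0.34 in Stc1-KO, 0.98 ± 0.34 in Pygo1-KO and 1.32 ± 0.34 in Rlim-KO, with edgeR adjusted p of 0.848, 0.169 and 0.113, so none passed. Without either Stc1-KO library both of the larger values passed, at edgeR adjusted p of 0.0337 and 0.0332 in Pygo1-KO, and 0.0152 and 0.0151 in Rlim-KO. Its antisense neighbour Wt1os does not overlap it and had 3 to 20 reads in a library.

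The genome 1 copy of Wt1 gave almost no reads in Stc1-KO and Pygo1-KO. Genome 1 held 0 of 163 and 1 of 91 reads in Stc1-KO, 0 of 306 and 0 of 157 in Pygo1-KO, and 80 of 241 and 81 of 254 in Rlim-KO libraries, against 19 of 119 and 21 of 108 in WT. Over the group, 0 of 463 reads in Pygo1-KO allows a share of up to 0.648%, and 1 of 254 in Stc1-KO is 0.394% (95% Wilson interval 0.0695 to 2.2), against 17.6% (13.2 to 23.1) in WT and 32.5% (28.5 to 36.8) in Rlim-KO. The edgeR adjusted p against WT was 0.0355 in Stc1-KO, 0.00657 in Pygo1-KO and 0.263 in Rlim-KO. The fitted log2 odds of -5.42 and -8.63 in Stc1-KO and Pygo1-KO depend on the prior count, since genome 1 had at most 1 read.

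The Stc1-KO call was lost without WT replicate 1 or WT replicate 2, at edgeR adjusted p of 0.207 and 0.242, and without either Rlim-KO library, at 0.13 and 0.13. The Pygo1-KO call was lost without either WT library, at edgeR adjusted p of 0.0546 and 0.0598. The flanking genes of Wt1 kept genome 1 reads: their median genome 1 share was 18.3 and 19.2% in Stc1-KO, 21.7 and 17.8% in Pygo1-KO, and 39.1 and 39.0% in Rlim-KO, against 23.9 and 24.2% in WT. These 10 genes lie within 14.3 Mb, and the lowest of them stood at 2.75 and 3.95% in Stc1-KO and at 0.427 and 0.161% in Pygo1-KO, against 20.6 and 20.1% in WT. Flanking genes were chosen for a WT share of 20 to 80%, so the lowest WT value was bounded by that choice. The other groups had no such bound. Wt1 reads of genome 2 averaged 3.01 ± 1.2 CPM in Pygo1-KO and 1.2 ± 0.15 CPM in WT (SD, n = 2 each), and reads of genome 1 averaged 0 CPM in Pygo1-KO and 0.255 ± 0.0111 CPM in WT.

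Hnf4a, the nuclear receptor of the proximal tubule, lies at chr2:163506808-163572910 on the plus strand. It had 20 and 1 reads in Stc1-KO, 5 and 7 in Pygo1-KO, and 0 and 0 in Rlim-KO libraries, against 86 and 74 in WT. All 6 knockout-labelled libraries lay below the WT pair, which itself stood at only 1.12 and 0.927 CPM. With a floor of 3 counts in each library, or 0.0389 CPM, Hnf4a was at least 26.3-fold lower in Rlim-KO than in WT, with an edgeR adjusted p of 0.0712. The log2 fold change was -2.81 ± 0.95 in Stc1-KO and -3.66 ± 1.01 in Pygo1-KO, with edgeR adjusted p of 0.245 and 0.125.

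Whether Hnf4a passed depended on the tool, the filter and the libraries in the fit. With all 8 libraries DESeq2 called it in Pygo1-KO and Rlim-KO, with adjusted p of 0.0219 and 8.96e-05, and so did edgeR without a filter on low counts, with adjusted p of 0.0352 and 0.00512. With only the compared groups in the fit the edgeR adjusted p was 0.00793 and 1.69e-30. Without either Stc1-KO library the edgeR adjusted p was 0.00406 and 0.00377 in Pygo1-KO, and 0.00244 and 0.00232 in Rlim-KO. Without Stc1-KO replicate 1, which held 20 of the 21 Hnf4a reads of that label, the log2 fold change of Stc1-KO was -6.11, with an edgeR adjusted p of 0.0036. Genome 1 held 6 of 76 and 0 of 53 of the Hnf4a reads of the WT libraries that carried a genome, a pooled share of 4.65% (95% Wilson interval 2.15 to 9.78), and the other groups had too few such reads to compare.

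Between knockout labels, none of the 8 genes was called by edgeR at an adjusted p under 0.05, beside 1.74% of all genes for Stc1-KO against Pygo1-KO, 0.381% for Stc1-KO against Rlim-KO and 1.02% for Pygo1-KO against Rlim-KO. At an unadjusted p under 0.05, 4, 4 and 3 genes passed, beside 17.4, 14.9 and 16.2% of all genes, and DESeq2 called 2 in each, beside 6.38, 4.45 and 5.64%. The nearest to the threshold was Pax2, which averaged 687 ± 53.7 CPM in Pygo1-KO and 1141 ± 24.1 CPM in Rlim-KO (SD, n = 2 each), a log2 difference of -0.73 ± 0.12 with an edgeR adjusted p of 0.0505. Emx2 followed, with 26.9 ± 8.95 CPM in Stc1-KO and 5.65 ± 3.75 CPM in Pygo1-KO, a log2 difference of 2.25 ± 0.46 with an edgeR adjusted p of 0.0648. Of these, Pax2 passed without either Stc1-KO library, and Emx2 passed without either Stc1-KO library and without Pygo1-KO replicate 2, where 3, 3 and 1 of the 8 genes were called.

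The test of shares took the 5 genes with at least 20 reads assigned to either genome in every library. Among them the genome share changed in 1 in Stc1-KO (Wt1), in 3 in Pygo1-KO (Pax2, Emx2 and Wt1) and in 1 in Rlim-KO (Pax8). Among all 12476 genes tested for their share, 5.54% were called in Stc1-KO, 20% in Pygo1-KO and 11.9% in Rlim-KO. Of the 8 genes, 4 lie on chromosome 2 and 2 on chromosome 19. On chromosome 2 the genome 1 share of Pax8, Wt1 and Gata3 was higher in both Rlim-KO libraries than in any other library, and so was the median of their flanking genes. Pax8 and Gata3 share flanking genes, so their 2 medians are not independent. Against WT the Rlim-KO share was called for Pax8 only. The edgeR adjusted p was 0.263 for Wt1 and, with a minimum of 10 reads, 0.316 for Gata3.

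Genes of most similar pattern were sought among 11742 genes by the root mean square difference of centred log2(CPM + 0.5) over the 8 libraries, which describes these libraries and carries no test. Among the genes nearest to Gata3 were Trmt9b and Plekhg4, at 0.082 and 0.126. Nearest to Pax2 were Htt, Fam193a and Taf4, at 0.068, 0.084 and 0.09, and nearest to Pax8 were Trappc1, Crb3 and Foxo1, at 0.053, 0.058 and 0.062. Nearest to Emx2 were Med12l, Cnnm1, also on chromosome 19, and Emx2os, at 0.234, 0.351 and 0.369. Nearest to Wt1 were Derl3, Ttc36 and Prkar2b, at 0.123, 0.123 and 0.139, and nearest to Sall1 were Mex3b, Rpl13 and Utp14a, at 0.102, 0.12 and 0.129. These distances grow with how much a gene varies. As a ratio to the gene's own root mean square deviation, the first match stood at 0.18 for Gata3, 0.23 for Pax2, Emx2 and Wt1, 0.25 for Sall1 and 0.38 for Pax8.

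Few other genes of the early programme were called by edgeR. Of 33 further regulators of nephron progenitors and the ureteric bud, 26 were tested, and none was called in Stc1-KO or Pygo1-KO and 1 in Rlim-KO by edgeR, beside 0.577, 2.35 and 1.4% of all genes. At an unadjusted p under 0.05, 7 passed in each, beside 16, 20.6 and 17.9% of all genes in Stc1-KO, Pygo1-KO and Rlim-KO. DESeq2 called 3 in Stc1-KO, 2 in Pygo1-KO and 4 in Rlim-KO, beside 4.79, 8.98 and 6.94% of all genes. The called gene was Sox8, a SoxE factor of the ureteric bud, which averaged 3.99 CPM in Rlim-KO and 12.7 CPM in WT, a log2 fold change of -1.67 ± 0.25 with an edgeR adjusted p of 0.0376. That call was lost without any 1 of the WT, Pygo1-KO or Rlim-KO libraries, with edgeR adjusted p up to 0.4. Six2, the defining factor of nephron progenitors, had no read in any library, while Wnt4, the inducer of nephron epithelium, averaged 94.8 CPM, Eya2 106 CPM and Gfra1, the coreceptor of Ret, 83.2 CPM. Ret itself averaged 0.421 CPM.

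Of 24 regulators of tubule and podocyte differentiation, 20 were tested, and edgeR called 0 in Stc1-KO, 4 in Pygo1-KO and 1 in Rlim-KO, beside 0.577, 2.35 and 1.4% of all genes. At an unadjusted p under 0.05, 6 passed in each, beside 16, 20.6 and 17.9% of all genes. DESeq2 called 5, 6 and 5, beside 4.79, 8.98 and 6.94% of all genes. In each comparison these included Elf3, which was higher, and Esrrb, which was lower. Esrrb had 1.88 and 1.68 CPM in WT and at most 0.18 CPM in a knockout-labelled library, and edgeR did not call it. The median log2 fold change of the 20 was -0.115, -0.144 and -0.132 in the same order of labels. The collecting duct factor Tfcp2l1 averaged 344 CPM in Pygo1-KO and 205 CPM in WT, the epithelial Ets factor Elf3 averaged 175 CPM in Pygo1-KO and 90.7 CPM in WT, and the AP-2 factor Tfap2a averaged 124 CPM in Pygo1-KO and 77.5 CPM in WT. These rose by 0.75 ± 0.12, 0.95 ± 0.13 and 0.68 ± 0.12 on the log2 scale, with edgeR adjusted p of 0.0383, 0.022 and 0.0464. Mecom, a zinc finger factor that acts in the pronephros of zebrafish, fell to 1.74 CPM in Pygo1-KO, against 5.54 CPM in WT, with an edgeR adjusted p of 0.022. Elf3 also rose in Rlim-KO, by 0.84 ± 0.13 on the log2 scale, with 162 CPM in Rlim-KO and 90.7 CPM in WT and an edgeR adjusted p of 0.0386. Each of these 5 calls was lost without either WT library, with edgeR adjusted p from 0.221 to 0.391. With each chromosome scaled to WT Tfcp2l1 also lost its call, at an edgeR adjusted p of 0.0787, as did Tfap2a with library totals in place of TMM factors, at 0.0522. Over all 8 libraries left out in turn the highest was 0.358 for Tfcp2l1, 0.373 for Tfap2a, 0.249 for Mecom, and 0.293 and 0.406 for Elf3 in Pygo1-KO and Rlim-KO.

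Of 29 reported target genes of the 8 factors, 19 were tested. Gata3 itself was the 1 that edgeR called in each comparison, beside 0.577, 2.35 and 1.4% of all genes. At an unadjusted p under 0.05, 4 passed in Stc1-KO, 6 in Pygo1-KO and 5 in Rlim-KO, beside 16, 20.6 and 17.9% of all genes. DESeq2 called Gata3 in each. It also called Sfrp1 lower and Gdnf higher in Stc1-KO, Cubn and Dab2 higher in Pygo1-KO, and Cdh6 lower in Rlim-KO. Cdh16, which Pax2 and Pax8 are known to activate, had 1224 to 2364 CPM over the 8 libraries. Of 24 genes of the same families 12 were tested, of 26 partners and cofactors 24, and of 15 stroma regulators 13, and edgeR called none of them in any of the 3 comparisons with WT. At an unadjusted p under 0.05 the same-family genes counted 6 in Stc1-KO, 2 in Pygo1-KO and 3 in Rlim-KO, the partners 2, 5 and 2, and the stroma regulators 3, 3 and 4. Of all genes, 16, 20.6 and 17.9% passed that limit in the same order of labels. DESeq2 called 2, 1 and 1 of the same-family genes, 1, 3 and 1 of the partners, and 2, 1 and 1 of the stroma regulators. Of all genes it called 4.79, 8.98 and 6.94%.

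A minority of the markers of tubular epithelium were called lower. Of 13 tested, edgeR called Cldn2 and Fxyd2 lower in each comparison, and Aqp1 and Cdh1 lower in Pygo1-KO and Rlim-KO as well, which gives 2 in Stc1-KO, 4 in Pygo1-KO and 4 in Rlim-KO, and none was called higher. Of all genes, 0.291% were called lower in Stc1-KO, 0.807% in Pygo1-KO and 0.617% in Rlim-KO. The median log2 fold change of the 13 was 0.06 in Stc1-KO, -0.255 in Pygo1-KO and -0.216 in Rlim-KO. DESeq2 called 3, 5 and 6 of them, beside 4.79, 8.98 and 6.94% of all genes. Among these were Cubn, higher in Pygo1-KO, and Epcam, higher in Rlim-KO, with DESeq2 adjusted p of 0.0463 and 0.00635. Cldn2 encodes a claudin of leaky tubules and Fxyd2 a subunit of the sodium pump. Fxyd2 averaged 8.33 CPM in Stc1-KO, 0.703 CPM in Pygo1-KO and 4.11 CPM in Rlim-KO, against 76.4 CPM in WT. Its edgeR adjusted p was 0.000561, 2.4e-05 and 0.000236. Cldn2 averaged 24.3, 52.5 and 23.0 CPM in the same order, against 132 CPM in WT, with edgeR adjusted p of 0.00114, 0.0059 and 0.000843. The calls of Fxyd2 in Pygo1-KO and Rlim-KO and of Cldn2 in Rlim-KO held in all 15 alternatives. Cdh1, the epithelial cadherin, averaged 0.273 CPM in Pygo1-KO and 0.506 CPM in Rlim-KO, against 9.21 CPM in WT, with edgeR adjusted p of 0.0161 and 0.0298. Without either WT library Cdh1 and Aqp1 lost their calls in Pygo1-KO and Rlim-KO, and Cldn2 in Pygo1-KO, with edgeR adjusted p from 0.117 to 0.358. With each chromosome scaled to WT, Cldn2 lost its call in Stc1-KO and Pygo1-KO, with edgeR adjusted p of 0.0594 and 0.248. With only the compared groups in the fit, Cldn2 and Fxyd2 lost theirs in Stc1-KO, with edgeR adjusted p of 0.0948 and 0.0501. Aqp1 and Cdh1 also lost their calls without either Rlim-KO library and, apart from Cdh1 in Rlim-KO, without either Pygo1-KO library, with edgeR adjusted p up to 0.4.

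The sum over all 18 tubule markers was 4696 to 5690 CPM in Stc1-KO, 3479 to 3844 CPM in Pygo1-KO and 4086 to 4285 CPM in Rlim-KO, against 7702 to 8225 CPM in WT. The knockout-labelled libraries all lay below both WT libraries in this sum, most of which was Aqp1 in WT, and Calb1 had no read in any library. Without Aqp1 the sum was 2987 and 2957 CPM in Stc1-KO, 1935 and 2392 CPM in Pygo1-KO, and 2159 and 2226 CPM in Rlim-KO libraries, against 2655 and 2755 CPM in WT, so that the Stc1-KO pair lay above WT and the other pairs below it. The part of these markers in the levels of Gata3 and Hnf4a was not tested. The sum of 15 fibroblast markers was 1221 to 1449 CPM in Stc1-KO, 1204 to 1671 CPM in Pygo1-KO and 1144 to 1166 CPM in Rlim-KO, against 1235 to 1270 CPM in WT, most of it from Vim. Without Vim, which like Aqp1 was left out after the values were seen, it was 209 and 391 CPM in Stc1-KO, 392 and 372 CPM in Pygo1-KO, and 284 and 294 CPM in Rlim-KO, against 295 and 320 CPM in WT. The median log2 fold change of the 9 fibroblast markers tested was 0.573 in Stc1-KO, 1.237 in Pygo1-KO and 0.636 in Rlim-KO. Of these 9, edgeR called S100a4, a calcium-binding protein gene, lower in Rlim-KO with an adjusted p of 0.0485, and called no other in the 3 comparisons. DESeq2 called none in Stc1-KO, Col1a1, Dcn and Pdgfrb higher and S100a4 lower in Pygo1-KO, and Pdgfra higher and S100a4 lower in Rlim-KO. The edgeR call of S100a4 was lost without any 1 of the WT, Pygo1-KO or Rlim-KO libraries, with edgeR adjusted p up to 0.45. The sum of 6 endothelial markers was 8.10 to 102.5 CPM in Stc1-KO, 3.18 to 8.78 CPM in Pygo1-KO and 8.64 to 8.72 CPM in Rlim-KO, against 2.63 to 3.23 CPM in WT, and that of 7 leukocyte markers lay between 29.2 and 59.9 CPM in all libraries. Cdh5 alone had 100.2 CPM in Stc1-KO replicate 2, and most of the leukocyte sum was Csf1r. Without Cdh5, also left out after the values were seen, the endothelial sum was 2.09 and 2.24 CPM in Stc1-KO and 2.38 and 2.19 CPM in Pygo1-KO. It was 3.04 and 3.045 CPM in Rlim-KO, against 1.04 and 1.69 CPM in WT. Pecam1, an endothelial adhesion gene, was called higher in Rlim-KO, at 2.26 CPM against 0.0944 CPM in WT with an edgeR adjusted p of 0.0294, and Cd68, a macrophage gene, in Pygo1-KO, at 7.07 CPM against 2.10 CPM in WT with an edgeR adjusted p of 0.0169. Both calls were lost without any 1 of the WT or Rlim-KO libraries, with edgeR adjusted p up to 0.295 and 0.238. Of 8 podocyte markers 5 were tested, and neither edgeR nor DESeq2 called any against WT, with 0 at an unadjusted p under 0.05.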

How the data were processed

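Total RNA was extracted with Trizol and prepared with a TruSeq RNA kit, per the labels' protocols. The submitters' processing notes name HISAT2 2.0.5, Cufflinks, featureCounts and the build mm10, per the labels, with no role or order. The authors deposited raw counts for each Ensembl gene in 3 measures: all reads, genome 1 reads and genome 2 reads. Not given in the sources used here are the annotation version, whether counting used strand, how multiply mapped reads were treated and how reads were split by genome. An aligner run against mm10 can favour C57BL/6, so shares were compared between libraries.

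Symbols, coordinates (1-based) and merged exon lengths came from GENCODE M21 on GRCm38, in which 345 of 49670 genes had no match. The edgeR 4.0.16 fit (R 4.3.3) used the default expression filter, TMM factors, 1 mean per group over all 8 libraries, the quasi-likelihood test and Benjamini-Hochberg adjustment over 17839 genes. A gene at an adjusted p under 0.05 was called. For genome shares, the edgeR model held 1 term per library and 1 genome effect per group, over 12476 genes with at least 20 assigned reads in every library. Flanking genes were the 5 nearest on each side with at least 50 assigned reads in every library and a WT share of 20 to 80%. Gata3 had only 3 such genes before it and so 8 in all, within 15.6 Mb. Floors use 3 counts, and intervals of low counts are exact Poisson intervals.

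Named genes were the 8 genes, genes overlapping or within 5 kb of them, the 3 genes of most similar pattern with a mean of at least 1 CPM and a symbol of their own, up to 4 called genes of each of 11 lists, and, chosen after their values were seen, list members named for their levels. One gene of most similar pattern to Gata3 is not reported here. The 8 genes and the lists were chosen with earlier results of these data known. Both models were also run on simulated data, with outcomes not given here. The simulated genome reads varied between libraries by counting error only. That run therefore cannot show how often the share test errs in these libraries. The alternatives were other scalings, filters, tools (DESeq2 1.42.0), read minimums, libraries in the fit and an added replicate term. Those for the genome shares were added after the data were seen. No sequence is printed.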

Additional observations from a re-analysis of the deposited data

Results flagged for a closer look

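In all, 4 genes differed between knockout labels in the share of their reads from genome 1, by the edgeR test of the difference itself. Differences are in log2 odds of genome 1, with standard errors. Pax2 differed by -6.98 ± 0.20 for Stc1-KO over Pygo1-KO and by 7.04 ± 0.20 for Pygo1-KO over Rlim-KO, with edgeR adjusted p of 2.6e-05 and 2.05e-05. Emx2, the other gene on chromosome 19, differed by -2.94 ± 0.53 for Stc1-KO over Pygo1-KO and by 4.55 ± 0.54 for Pygo1-KO over Rlim-KO, with edgeR adjusted p of 0.0235 and 0.00247. Pax8 differed by -1.37 ± 0.11 for Stc1-KO over Rlim-KO and by -1.41 ± 0.11 for Pygo1-KO over Rlim-KO, with edgeR adjusted p of 0.00131 and 0.000531. Wt1 differed by -6.59 ± 0.74 for Stc1-KO over Rlim-KO and by -9.79 ± 0.90 for Pygo1-KO over Rlim-KO, with edgeR adjusted p of 0.00891 and 0.00225, values that depend on the prior count since genome 1 had 1 read at most in a Stc1-KO or Pygo1-KO library. Of all genes tested, 10.8% were called for Stc1-KO against Pygo1-KO, 12.4% for Stc1-KO against Rlim-KO and 15.9% for Pygo1-KO against Rlim-KO.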

How the results depend on the processing

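The count of the 8 genes called against WT moved with the setting. In Stc1-KO it was 0 with the compared groups alone and 0 to 3 with a library left out. In Pygo1-KO it was 3 without a filter, 3 with DESeq2, 4 with the compared groups alone and 0 to 5 with a library left out. In Rlim-KO it was 2 without a filter, 4 with DESeq2, 6 with the compared groups alone and 0 to 5 with a library left out. Counts of 5 came from leaving out a Stc1-KO library, and counts of 0 from leaving out a WT library, among others. Between labels, where none was called, Stc1-KO against Pygo1-KO gave 1 without a filter and 2 with DESeq2, Stc1-KO against Rlim-KO gave 2 with DESeq2, and Pygo1-KO against Rlim-KO gave 1 with library totals, 2 without a filter, 2 with DESeq2 and 1 with the compared groups alone. Each gave 0 to 3 with a library left out. The genes with a changed genome share numbered 0 to 1 in Stc1-KO, 1 to 4 in Pygo1-KO and 0 to 1 in Rlim-KO with a library left out, and 3 in Rlim-KO with the compared groups alone. Calls by level over all genes moved with the setting too. In Stc1-KO against WT, 103 of 17839 genes were called in the main fit and 0 of 16877 with the compared groups alone. There, 361 of 29381 were called without a filter and 835 of 17419 with DESeq2. DESeq2 called 8.98% of all genes in Pygo1-KO and 6.94% in Rlim-KO, against 2.35 and 1.4% by the main fit. Calls over all genes also moved with a library left out. The cause of these moves was not tested.

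With the replicate number as a block, 0 of the 8 genes were called in every comparison, with edgeR adjusted p for Gata3 of 0.113, 0.0812 and 0.0863 in Stc1-KO, Pygo1-KO and Rlim-KO. It also ended the calls of Tfcp2l1, Elf3, Tfap2a and Cd68 in Pygo1-KO and of Elf3, Sox8, Aqp1, Cdh1, S100a4 and Pecam1 in Rlim-KO, with edgeR adjusted p from 0.0517 to 0.0904. The numbers are not known to pair the libraries: deviations of same-numbered libraries correlated at -0.198 to 0.266.

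Of 360 recomputed log2 fold changes, 295 kept their direction and side of the threshold, 35 passed only under the alternative, 22 lost their call and 8 turned direction, all of genes that were not called. In Stc1-KO these were Pax8 (-0.014 without a filter), and, over the libraries left out, Pax8 (-0.2 to 0.18), Emx2 (-0.21 to 0.48), Wt1 (-0.3 to 0.51) and Sall1 (-0.18 to 0.63). Without WT replicate 1 Pax8 stood at -0.02, and the other turns came from leaving out a Stc1-KO library. Lhx1 ranged from -1.51 to 0.24 in Pygo1-KO and from -0.039 to 0.39 in Rlim-KO, turning without Pygo1-KO replicate 2 and without Rlim-KO replicate 1. Of 165 log2 odds, 144 kept both and 4 turned with a library left out: in Stc1-KO, Pax2 (-0.045 to 0.15), Emx2 (-0.005 to 1.44) and Sall1 (-0.33 to 0.72), and in Rlim-KO, Pax2 (-0.026 to 0.004). A group left with 1 library was assumed to vary like the others. The values of Gata3, Hnf4a and Lhx1 rest on 136 reads or fewer in a library.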
